A study of Mus musculus with 2 samples.

Results

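The sterol and fatty acid synthesis module was a fixed list of 28 gene symbols, read in a single-cell RNA library of a treated 4T1 tumour. It held 16 enzymes of the sterol branch, 8 enzymes of the fatty acid branch and 4 regulators, and all 28 were found among the 33696 genes of the library. The list and the marker rules for cell classes were given by name, and no member is among the markers of the rules. The list was chosen with earlier results of these data known. The tumours were subcutaneous growths of 4T1, a mouse breast cancer cell line, with the genotype WT in both groups. One group received PBS as control. For the other the labels give the treatment as PCN and the series title calls it PATCH, and neither name is spelled out. Each group was 1 library of polyA RNA made with Chromium 3′ v3 chemistry, and the labels state neither the age nor the number of animals. The PBS library's counts are not analysed here, and every value below describes the treated library and no effect of treatment is given.

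Cholesterol is built from acetyl-CoA through the mevalonate pathway, which yields farnesyl diphosphate, then squalene, lanosterol and, after trimming and reduction of the rings, cholesterol. Fatty acids are built from the same acetyl-CoA, which ATP-citrate lyase releases from citrate and acetyl-CoA carboxylase and fatty acid synthase turn into palmitate for elongation and desaturation. Both branches are transcribed under the SREBP factors, which are held in the endoplasmic reticulum by SCAP and INSIG proteins when sterols are plentiful. SREBP-2 is best known for sterol genes and SREBP-1 for fatty acid genes, and both pathways supply membrane lipids to growing tumours.

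The authors kept 10835 treated cells with 60652188 UMIs (unique molecular identifiers, one per captured RNA molecule) and a median of 3575 per cell. Classes were assigned by the share of a cell's UMIs in a few marker genes, the first rule met deciding. This gave 3518 neutrophil, 325 fibroblast, 322 tumour, 238 T/NK and 4672 macrophage cells, with median depths of 1698, 11662, 11176.5, 2916.5 and 7168.5 UMIs. The other 1760 cells met no rule and led in osteoclast markers, summed over 4 genes at 2802 counts per 1000000 UMIs of the class (CPM), so they were not taken as 1 type. Markers that the rules did not use followed the class names: Col1a1 stood at 14152 CPM in fibroblast cells and at most 64.6 CPM in another named class, and Cldn4 stood at 311 CPM in tumour cells and at most 4.39 CPM in another. Of the 7 further tumour markers, Krt5 was at 0 UMIs in all classes and Lcn2 was highest in neutrophils. In the T/NK class the endothelial and dendritic lists were led by 1 gene each that T cells also express, Pecam1 with 190 of 211 CPM and Ccr7 with 165 of 178 CPM. The other 4 endothelial markers stood at 2.38 to 9.52 CPM there, and 4 of the 6 dendritic markers at 0 UMIs. More than 1 rule was met by 345 cells. Of 11643 kept control barcodes, 33 were also listed as treated cells. A further 1097 barcodes at or above 20000 UMIs had been left out by the authors, and these are given beside the tumour values, since 394 of them met the tumour rule.

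The members took 37998 UMIs, which was 0.0626% of the library, and ranged from 92 UMIs for Lss to 5002 for Scd2. UMIs count transcript ends and are not scaled by gene length, so a level is compared between classes and not between genes. Intervals are exact 95% intervals for counting error only. With 1 library and cells that are not replicates, no test was possible.

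Promoter sequences from RefSeq (GRCm38.p6, 250 bases before to 50 after a start site) were found for 23 of the 28 members. Fdps, Fdft1, Sqle, Scd1 and Scd2 had no entry. They were searched on both strands for TCACNCCAC, a core of the sterol regulatory element to which SREBPs bind, CCAAT, the box of the co-factor NF-Y, and GGGCGG, the GC box of Sp1. Matches of different motifs were counted apart, also where they share bases. CCAAT occurred in 13 of 13 sterol members, 4 of 6 fatty acid members and 3 of 4 regulators, against 41.1% of all genes in the table. GGGCGG occurred in 12 of 13, 3 of 6 and 4 of 4 members, against 38.2% of all genes. TCACNCCAC occurred in Hmgcs1 alone among the members, and in 1.44% of all genes. Genes with more than 1 promoter were counted if any of them held the motif. The sequences shown are those of the members with the highest ratio of tumour to other cells among those with an entry, 3 sterol and 1 fatty acid, and of Hmgcs1, which was added after its match was seen. Capitals mark matches to TCACNCCAC and to CCAAT or its reverse complement, and GC boxes are left in lower case.
Hmgcs1 promoter, chr13:119690101-119690400, plus strand: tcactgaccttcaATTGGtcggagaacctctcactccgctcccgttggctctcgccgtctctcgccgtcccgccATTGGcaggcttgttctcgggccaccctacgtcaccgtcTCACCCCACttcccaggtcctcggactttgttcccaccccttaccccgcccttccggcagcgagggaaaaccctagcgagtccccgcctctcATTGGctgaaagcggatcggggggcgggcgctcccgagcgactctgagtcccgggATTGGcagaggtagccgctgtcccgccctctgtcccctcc
Hsd17b7 promoter, chr1:169969156-169969455, minus strand: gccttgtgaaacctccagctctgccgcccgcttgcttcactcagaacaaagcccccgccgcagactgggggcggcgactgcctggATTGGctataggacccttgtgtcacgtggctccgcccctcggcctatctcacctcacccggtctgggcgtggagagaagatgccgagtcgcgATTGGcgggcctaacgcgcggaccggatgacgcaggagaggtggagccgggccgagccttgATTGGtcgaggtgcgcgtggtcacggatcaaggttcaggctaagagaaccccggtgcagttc
Sc5d promoter, chr9:42264251-42264550, minus strand: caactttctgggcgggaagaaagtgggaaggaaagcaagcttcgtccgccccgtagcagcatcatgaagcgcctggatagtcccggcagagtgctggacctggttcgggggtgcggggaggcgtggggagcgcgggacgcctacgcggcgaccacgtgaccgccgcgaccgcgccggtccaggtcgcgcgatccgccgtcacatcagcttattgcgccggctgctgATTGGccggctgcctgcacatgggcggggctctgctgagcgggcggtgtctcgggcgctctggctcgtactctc
Dhcr7 promoter, the one of 3 that holds CCAAT, chr7:143829964-143830263, plus strand: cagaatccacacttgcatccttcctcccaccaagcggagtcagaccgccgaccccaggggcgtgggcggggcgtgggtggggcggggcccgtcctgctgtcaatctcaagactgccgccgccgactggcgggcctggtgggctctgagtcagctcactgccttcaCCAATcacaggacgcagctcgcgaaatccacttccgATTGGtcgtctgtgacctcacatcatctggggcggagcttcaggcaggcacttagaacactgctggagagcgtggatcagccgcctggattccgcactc
Me1 promoter, the one of 2 that holds GGGCGG, chr9:86695865-86696164, minus strand: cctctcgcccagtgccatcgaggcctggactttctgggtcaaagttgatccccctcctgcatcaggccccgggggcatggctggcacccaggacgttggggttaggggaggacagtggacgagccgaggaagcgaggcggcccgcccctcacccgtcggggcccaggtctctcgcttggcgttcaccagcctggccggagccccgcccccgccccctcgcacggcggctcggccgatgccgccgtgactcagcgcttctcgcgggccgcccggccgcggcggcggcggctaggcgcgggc
The Hmgcs1 window holds 4 NF-Y boxes and the single sterol element core, which starts 137 bases before the start site. Hsd17b7 holds 3 NF-Y boxes, Dhcr7 holds 2 and Sc5d holds 1. The printed Me1 window holds no NF-Y box and 4 GC boxes, while the other Me1 window holds 1 NF-Y box and no GC box. A match describes letters in a window and no binding was measured.

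Both branches stood highest in tumour and fibroblast cells and lowest in neutrophils. The sterol branch summed to 408 CPM (interval 386 to 430) in tumour, 458 (436 to 480) in fibroblast, 279 (274 to 284) in macrophage, 251 (218 to 287) in T/NK and 133 (125 to 142) in neutrophil cells. The fatty acid branch summed to 466 CPM (444 to 490), 474 (452 to 497), 222 (217 to 227), 228 (197 to 263) and 63.6 (58.1 to 69.6) in the same order of classes. Regulators summed to 167, 150, 123, 145 and 52.6 CPM. Neutrophil cells thus had the lowest sum in all 3 groups, and the intervals of macrophage and T/NK cells overlapped in both enzyme branches. The 1760 unclassed cells lay among the named classes, at 236 CPM for sterol and 262 CPM for fatty acid enzymes.

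**Figure D1:**
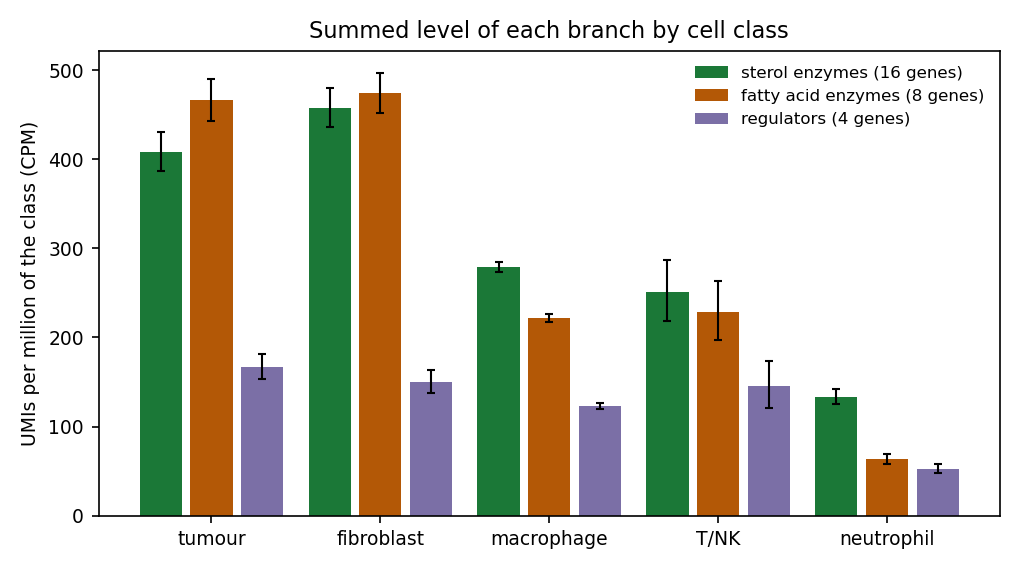
Summed level of the sterol enzymes, fatty acid enzymes and regulators in each cell class, in CPM, with exact 95% Poisson intervals as bars. Tumour and fibroblast cells stand above the other classes in both enzyme branches, and neutrophils stand lowest in all 3 groups.

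The spread between classes was wider for the fatty acid branch than for the sterol branch. Tumour cells exceeded neutrophils 7.33-fold (6.61 to 8.14) in fatty acid enzymes and 3.06-fold (2.82 to 3.33) in sterol enzymes, and these intervals do not overlap. Tumour cells exceeded macrophages 2.10-fold (1.99 to 2.22) in fatty acid enzymes and 1.46-fold (1.38 to 1.55) in sterol enzymes. Between fibroblast and tumour cells the fatty acid sums were within counting error, at a ratio of 1.02 (0.949 to 1.09), while the sterol sum was 1.12-fold higher in fibroblasts (1.04 to 1.21). That order turned with the cells counted: over all barcodes the sterol sum was 526 CPM in tumour and 422 CPM in fibroblast cells, and as a mean over cells it was 445 against 432 CPM.

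The ratio of sterol to fatty acid UMIs, taken within each class, was highest in neutrophils at 2.09 (1.87 to 2.34). It was 1.26 (1.22 to 1.29) in macrophages, 1.10 (0.900 to 1.34) in T/NK cells, 0.965 (0.902 to 1.03) in fibroblasts and 0.874 (0.812 to 0.941) in tumour cells. Neutrophils and macrophages thus had more sterol than fatty acid UMIs, and the T/NK and fibroblast intervals include 1. The ratio sets 16 genes over 8 others, so 1 means equal UMIs and marks no balance of the pathways. The low tumour value depended on the cells counted. In the 394 left-out tumour barcodes, with a median of 31661 UMIs, the ratio was 1.11 (1.08 to 1.15), and over all barcodes of the matrix it was 1.06. Whether such deep barcodes hold more than 1 cell was not tested. Left-out fibroblast and macrophage barcodes gave 0.904 and 1.23. The ratio also rests on the paralogs Scd1 and Scd2, whose shared reads the authors' counting could split or lose. Without this pair it was 2.83, 1.94, 1.89, 1.63 and 1.18 in neutrophil, macrophage, fibroblast, tumour and T/NK cells, which put T/NK cells lowest.

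**Figure D2:**
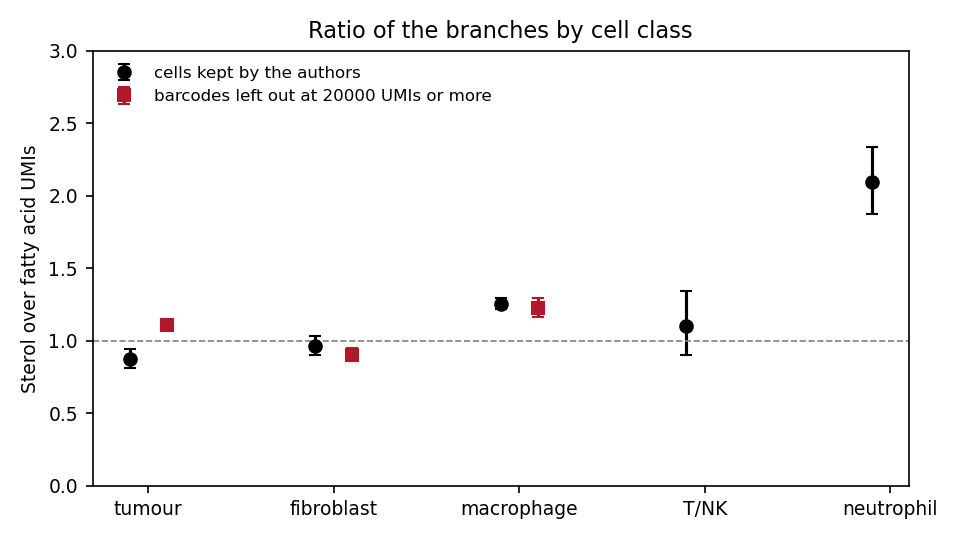
Sterol over fatty acid UMIs by cell class on a linear axis, with exact 95% conditional intervals, for cells kept by the authors (circles) and for left-out barcodes at 20000 UMIs or more (squares, in the 3 classes with over 200 of them). Neutrophils stand at 2.09, and the tumour value lies below 1 in kept cells and above 1 in left-out barcodes.

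Depth differed between classes, so each cell was also thinned at random to 1000 UMIs, without those that had fewer (531 neutrophil, 5 fibroblast, 44 tumour, 9 T/NK and 120 macrophage cells). A sterol UMI was then found in 30.6% of fibroblast, 27.7% of tumour, 22.0% of macrophage, 17.0% of T/NK and 10.98% of neutrophil cells. A fatty acid UMI was found in 35.3%, 31.3%, 17.5%, 17.5% and 4.82% of the same classes. Without thinning, the sterol shares were 83.7%, 81.1%, 71.0%, 46.2% and 19.98%. As a measure of free RNA, the fibroblast gene Col1a1 was found after thinning in 3.71% of macrophage, 4.55% of neutrophil, 5.40% of tumour and 5.68% of T/NK cells. No class is known to lack the members, and Col1a1 is far more abundant in its own class than either branch, so its share sets no background for them. In neutrophils its level was 0.456% of that in fibroblasts.

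Levels in neutrophils were set against free macrophage RNA in another way. C1qc, a macrophage gene, stood in neutrophils at 7.12% of its macrophage level. The sterol branch stood at 47.7% (44.7% to 50.9%) of its macrophage level, the fatty acid branch at 28.7% (26.1% to 31.4%) and the regulators at 42.8%. All 3 sums were above the share seen for C1qc, but that share depends on the marker taken. In neutrophils and macrophages Cd68 stood at 78.8 and 269 CPM, Adgre1 at 25.2 and 209, and Fcgr1 at 20.7 and 161. Mrc1 stood at 76.1 and 1027 CPM and Ms4a7 at 19.9 and 296. Of the neutrophil cells, 311 also met another rule. How much of the members' level in neutrophils is free RNA was not tested. Of single members, Dhcr7 at 8.58% (5 UMIs) and Lss at 9.30% (1 UMI) lay nearest to the C1qc share. Their intervals include it, as does that of Me1 (3 UMIs).

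For single members, the level in a class was divided by that in all other kept cells together, and a ratio of at least 2 in either direction was counted (with 0.5 UMIs added to each sum). In tumour cells 13 of 28 members were at least 2-fold higher and 1 was lower, against 26.5% of all 16445 genes higher and 25.2% lower. In fibroblasts 11 were higher and 0 lower, against 19.9% and 24.2% of all genes. In neutrophils 21 members were lower and 1 higher, against 58.4% and 10.1% of all genes. T/NK cells had 3 members higher and 4 lower, against 21.2% and 22.6%, and macrophages had 0 higher and 3 lower, against 6.58% and 25.6%. All 28 members passed the minimum of 20 UMIs over all kept cells.

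These counts depend on what the class is set against, because macrophages and neutrophils make up most other cells. Against the mean of the other 4 classes at equal weight, 5 members (17.9%) were at least 2-fold higher in tumour cells, where 21.9% of all genes were, so the tumour count no longer stood above the share of all genes. In fibroblasts 7 of the 28 were higher, against 16.7% of all genes. Neither class had a member lower, against 26.5% of all genes in tumour cells and 28.7% in fibroblasts. Macrophages then had 2 higher and 7 lower, against 8.84% and 31.0% of all genes, and T/NK cells had 1 higher and 7 lower, against 19.4% and 26.8%. Neutrophils had 0 higher, against 9.78%. With the left-out barcodes added, fibroblasts had 5 higher (17.9%) and 2 lower, against 17.0% and 24.1% of all genes. Tumour cells then had 14 higher (50%), against 22.0% of all genes. As a mean over cells, tumour cells had 15 higher (53.6%), against 29.5%. The median log2 ratio in tumour cells was 1.48 over the 8 fatty acid members, 0.81 over the 16 sterol members and 0.45 over the regulators, beside 0.21 over all genes tested. In fibroblasts these medians were 1.13, 0.82 and 0.30, beside -0.07, and in neutrophils -2.53, -1.36 and -1.52, beside -1.37. The neutrophil sterol median thus lay next to that of all genes.

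**Figure D3:**
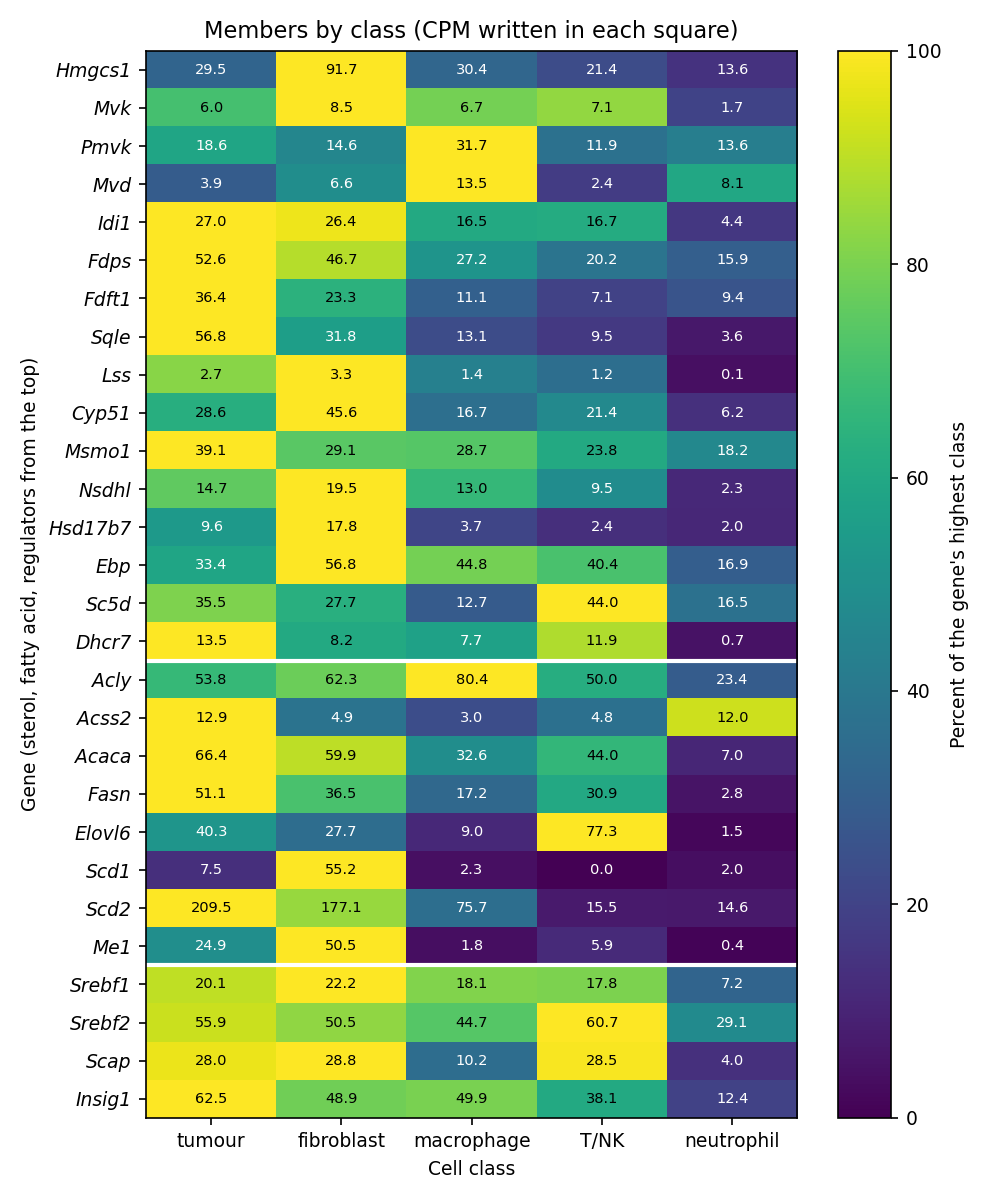
Level of each member in each cell class, as CPM written in the squares, with colour giving the percent of the gene's highest class; white lines part the sterol enzymes, fatty acid enzymes and regulators. Tumour and fibroblast cells each hold the highest level of 11 members, and neutrophils hold the lowest level of 22. Highest and lowest classes were not counted over all genes, of which 58.4% were at least 2-fold lower in neutrophils than in other cells.

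The mevalonate enzymes, which run from acetyl-CoA units to farnesyl diphosphate, did not peak in 1 class. Hmgcs1, the HMG-CoA synthase that opens the pathway, stood at 91.7 CPM in fibroblasts, 30.4 in macrophages, 29.5 in tumour cells, 21.4 in T/NK cells and 13.6 in neutrophils. Fibroblasts stood apart from every other class, 3.11-fold (2.48 to 3.94) above tumour cells. In left-out barcodes the gap was narrower, with Hmgcs1 at 66.5 CPM in fibroblast and 44.3 CPM in tumour barcodes. Pmvk and Mvd, the enzymes that phosphorylate and decarboxylate mevalonate intermediates, were highest in macrophages at 31.7 and 13.5 CPM. Mvd was the 1 member at least 2-fold lower in tumour cells, at 3.91 CPM (13 UMIs) against 11.6 CPM in other cells. Fdps, which makes farnesyl diphosphate, was 2.01-fold (1.71 to 2.35) higher in tumour cells, at 52.6 CPM. Idi1, the isomerase before it, stood at 27.05 CPM in tumour and 26.4 CPM in fibroblast cells, a difference within counting error. Mvk, mevalonate kinase, ranged from 1.73 CPM in neutrophils to 8.51 CPM in fibroblasts.

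The 10 enzymes from squalene synthase onwards, of 16 sterol members, held 5 of the 6 that were at least 2-fold higher in tumour cells. Among all genes 26.5% were that high there. Against the other classes at equal weight, 17.9% of all 28 members and 21.9% of all genes were. Sqle, squalene epoxidase, stood at 56.8 CPM in tumour, 31.8 in fibroblast, 13.1 in macrophage, 9.52 in T/NK and 3.59 in neutrophil cells. It was 4.44-fold (3.76 to 5.21) higher in tumour cells than in all others and 1.78-fold (1.41 to 2.27) higher than in fibroblasts. Fdft1, squalene synthase, was 3.17-fold (2.59 to 3.85) higher in tumour cells, at 36.4 CPM. Dhcr7, which makes cholesterol from its last precursor, was 2.10-fold (1.51 to 2.87) higher, at 13.5 CPM.

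Other late enzymes were highest in fibroblasts. Cyp51, the lanosterol demethylase, stood at 45.6 CPM there and 28.6 CPM in tumour cells. Hsd17b7, a sterol ketoreductase, was 4.44-fold (3.32 to 5.88) above other cells in fibroblasts, at 17.8 CPM, and 2.10-fold above in tumour cells, at 9.62 CPM. Ebp, a sterol isomerase with the most UMIs of the sterol branch, reached 56.8 CPM in fibroblasts, 44.8 in macrophages and 33.4 in tumour cells. Nsdhl stood at 19.5 CPM in fibroblasts. Lss, lanosterol synthase, rested on 12 UMIs in fibroblasts and 9 in tumour cells. Msmo1 varied least among sterol members, from 18.2 CPM in neutrophils to 39.1 CPM in tumour cells.

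Sc5d, the sterol C5 desaturase whose promoter is printed above, followed another order. It stood at 44.0 CPM in T/NK (37 UMIs), 35.5 in tumour, 27.7 in fibroblast, 16.5 in neutrophil and 12.7 in macrophage cells. T/NK and tumour cells did not differ beyond counting error, and both lay above macrophages. It was the 1 sterol member that was higher in neutrophils than in macrophages, by 1.30-fold (1.06 to 1.59). The late part of the branch exceeded the mevalonate part 1.96-fold (1.75 to 2.20) in tumour cells and 2.15-fold (1.60 to 2.92) in T/NK cells. In fibroblasts, neutrophils and macrophages this ratio was lower, at 1.35 (1.23 to 1.49), 1.32 (1.17 to 1.505) and 1.21 (1.17 to 1.26). These ratios hold for kept cells and were not taken in left-out barcodes. In left-out tumour barcodes the mevalonate members stood at 1.31 (Mvk) to 1.83 (Idi1) of their kept level. The late members stood at 0.970 (Sc5d) to 1.73 (Lss) there, so the tumour ratio may not carry over to them.

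**Figure D4:**
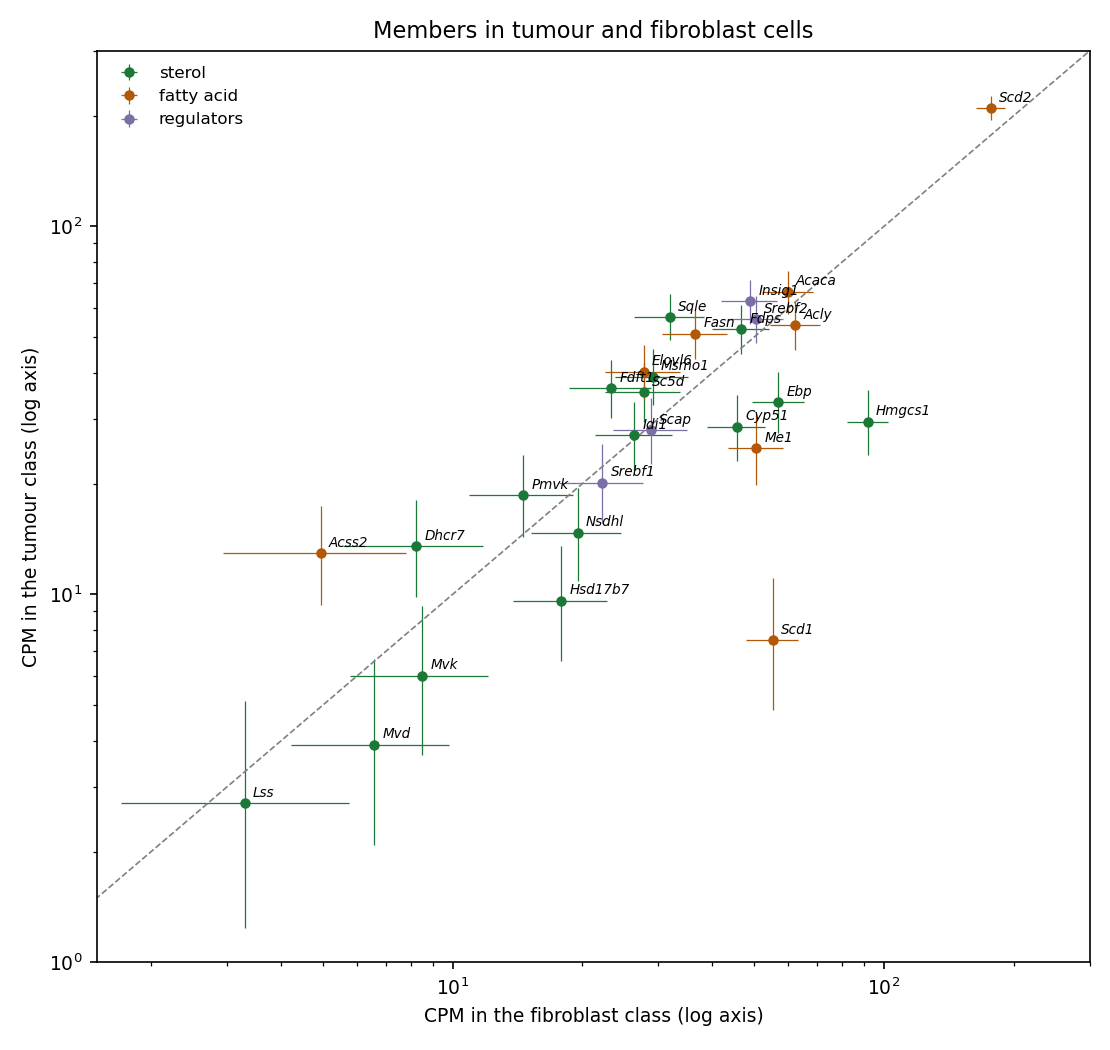
Level of each member in fibroblast cells (horizontal) and tumour cells (vertical), in CPM on log axes, with exact 95% Poisson intervals; the dashed line marks equal levels. Scd1, Hmgcs1 and Me1 lie well below the line and Acss2 and Sqle above it, while Scd2 is high in both.

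Which enzymes carried the fatty acid branch differed between classes. Acly, the ATP-citrate lyase that makes cytosolic acetyl-CoA, stood at 80.4 CPM in macrophages, 62.3 in fibroblasts, 53.8 in tumour cells, 49.96 in T/NK cells and 23.4 in neutrophils. It made up 36.2% of the branch in macrophages and 36.7% in neutrophils, against 11.5% in tumour cells. Acss2 makes acetyl-CoA from acetate instead. It stood at 12.9 CPM in tumour cells, 12.0 in neutrophils, 4.94 in fibroblasts, 4.76 in T/NK cells (4 UMIs) and 3.05 in macrophages. Tumour cells and neutrophils shared a level within counting error, and neutrophils exceeded macrophages 3.92-fold (2.94 to 5.22). Acss2 was the 1 member at least 2-fold higher in neutrophils than in all other cells, at 2.86-fold (2.21 to 3.67), although not against the other classes at equal weight.

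Acaca and Fasn, which commit acetyl-CoA to fatty acids and build palmitate, were ordered alike. Acaca stood at 66.4 CPM in tumour, 59.9 in fibroblast, 44.0 in T/NK, 32.6 in macrophage and 7.04 in neutrophil cells. Fasn stood at 51.1, 36.5, 30.9, 17.2 and 2.79 CPM in the same classes. Fasn was 3.02-fold (2.55 to 3.55) higher in tumour cells than in all others and 1.40-fold (1.11 to 1.77) higher than in fibroblasts.

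The desaturases Scd1 and Scd2, which put the first double bond into stearate and palmitate, were unlike each other. Scd2 stood at 209 CPM in tumour, 177 in fibroblast, 75.7 in macrophage, 15.5 in T/NK and 14.6 in neutrophil cells. It took 44.9% of fatty acid UMIs in tumour cells and 37.3% in fibroblasts. Scd1 stood at 55.2 CPM in fibroblasts, 7.51 in tumour cells, 2.32 in macrophages and 1.99 in neutrophils. No Scd1 UMI was found in T/NK cells, where the interval reached up to 4.39 CPM, below the 7.81 CPM of other cells. Fibroblasts exceeded tumour cells 7.34-fold (4.83 to 11.6) in Scd1, with a Scd1 UMI in 103 of 325 fibroblasts and 20.9% of the UMIs in 5 cells. In Scd2 tumour cells exceeded fibroblasts 1.18-fold (1.06 to 1.32). Both differences were smaller in left-out barcodes. There Scd2 stood at 173 CPM in tumour and 174 CPM in fibroblast barcodes, and Scd1 at 12.3 and 34.9 CPM.

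**Figure D5:**
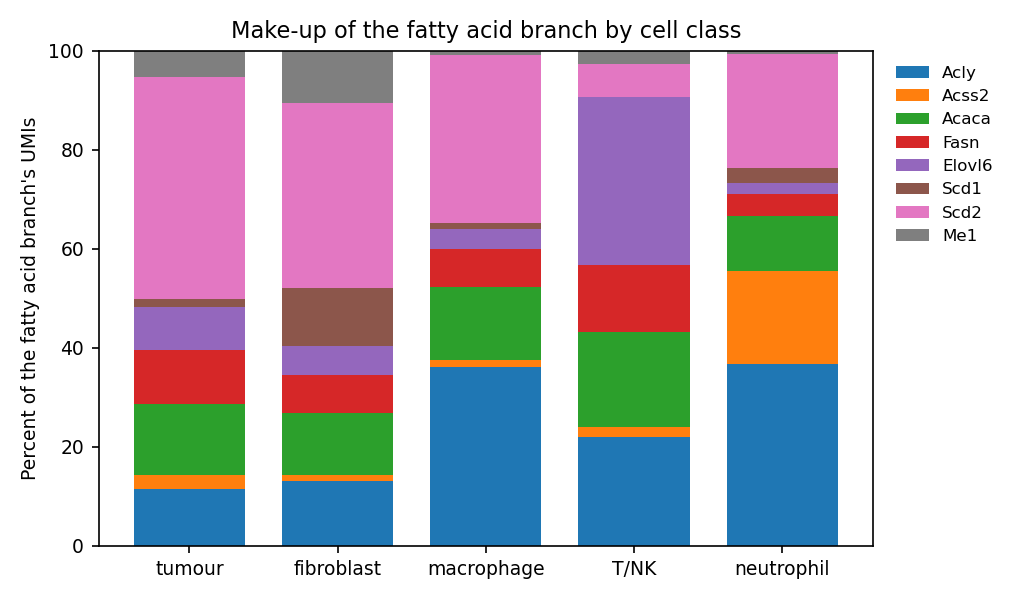
Percent of the UMIs of the fatty acid branch that each of its 8 members took in each cell class. Scd2 is the largest part in tumour and fibroblast cells, Acly in macrophages and neutrophils, and Elovl6 in T/NK cells.

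Me1, the malic enzyme that supplies NADPH, stood at 50.5 CPM in fibroblasts, 24.9 in tumour cells, 5.95 in T/NK cells, 1.78 in macrophages and 0.399 in neutrophils (3 UMIs). Fibroblasts exceeded tumour cells 2.03-fold (1.55 to 2.66). Elovl6, which elongates palmitate to stearate, was highest in T/NK cells at 77.3 CPM, followed by 40.3 in tumour, 27.7 in fibroblast, 8.95 in macrophage and 1.46 in neutrophil cells. T/NK cells exceeded tumour cells 1.92-fold (1.40 to 2.60). The T/NK value rested on 65 UMIs in 38 of 238 cells, with 29.2% of them in 5 cells. It was 33.9% of the branch there.

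Of all 28 members, Srebf2, the gene of SREBP-2, differed least between its highest and lowest class, by 2.08-fold, from 29.1 CPM in neutrophils to 60.7 CPM in T/NK cells. Srebf1 ranged from 7.17 CPM in neutrophils to 22.2 CPM in fibroblasts, and tumour cells stood at 20.1 CPM. Insig1, itself a known SREBP target, stood at 62.5 CPM in tumour, 49.9 in macrophage, 48.9 in fibroblast, 38.1 in T/NK and 12.4 in neutrophil cells. Scap, the sterol sensor that escorts SREBPs, was the 1 regulator at least 2-fold higher in tumour cells (2.56-fold, 2.04 to 3.19), at 27.95 CPM. It stood at 28.8 CPM in fibroblasts and 28.5 CPM in T/NK cells, and at 10.2 CPM in macrophages.

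The left-out tumour barcodes carried more sterol UMIs than the kept tumour cells, at 555 CPM against 408 CPM, a ratio of 1.36 (1.29 to 1.44). The fatty acid sum was 1.07-fold higher (1.02 to 1.13) and the regulators stood at 0.896 of the kept level (0.816 to 0.985). Idi1 was 1.83-fold, Msmo1 1.70-fold, Fdps 1.63-fold and Fasn 1.52-fold higher in them, while Scd2 and Insig1 stood at 0.825 and 0.748 of the kept level. Sqle, at 67.8 CPM, was 1.19-fold higher (1.02 to 1.40). In left-out macrophages both branches were higher than in kept ones, by 1.22-fold and 1.25-fold, and in left-out fibroblasts the sterol sum stood at 0.884 (0.832 to 0.939) of the kept level.

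Among kept cells, depth moved with the level in some classes. Macrophages at or above their median depth had 297 CPM of sterol UMIs and those below it 226 CPM, a ratio of 1.31 (1.25 to 1.37), and the fatty acid ratio was 1.28 (1.22 to 1.35). In fibroblasts the sterol ratio was 1.29 (1.15 to 1.45). In tumour cells it was 0.972 (0.858 to 1.10), within counting error.

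Cells with at least 0.3% of their UMIs in 18 cell cycle genes, none of them members, were set against the rest of their class. The 208 cycling macrophages had 352 CPM of sterol UMIs and the other 4464 had 274 CPM, a ratio of 1.29 (1.20 to 1.38), while the fatty acid ratio was 1.04 (0.951 to 1.13). Dhcr7 (1.82-fold), Sqle (1.70-fold), Cyp51 (1.59-fold), Idi1 (1.55-fold) and Hmgcs1 (1.46-fold) were higher in cycling macrophages, and Mvd stood at 0.481 (0.272 to 0.788). Cycling macrophages were also deeper, at a median of 11768.5 UMIs against 7019.5. Among macrophages at or above the class's median depth the sterol ratio was 1.24 (1.15 to 1.34), and below it 0.949 (0.648 to 1.34) on 32 UMIs. At a threshold of 0.6% only 13 macrophages remained, on 15 sterol UMIs, and the ratio turned to 0.608 (0.340 to 1.004).

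The 28 cycling tumour cells, with a median of 2934.5 UMIs against 11635, had a sterol ratio of 0.967 (0.754 to 1.22) and a fatty acid ratio of 0.616 (0.462 to 0.806) to other tumour cells. In 14 cycling T/NK cells the sterol ratio was 1.51 (1.02 to 2.17) and the fatty acid ratio 0.760 (0.440 to 1.24). Near the threshold, within a factor of 2, lay 357 macrophages and 66 tumour cells.

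Other genes of lipid metabolism were read from lists beside the members. Of the other sterol synthesis genes, Acat2, a thiolase, was 2.90-fold (2.09 to 3.95) higher in tumour cells than in all others, and Erg28 was 2.21-fold (1.95 to 2.51) higher. Of 9 genes of sterol uptake and SREBP processing, 2 were higher in tumour cells, the SREBP-cleaving protease Mbtps1 (2.99-fold) and Insig2 (2.21-fold), and 1 lower, the lysosomal sterol transporter Npc1 (0.134 of other cells).

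Of 14 other fatty acid synthesis genes, 5 were higher and 3 lower in tumour cells. Elovl7, an elongase, stood at 45.4 CPM in tumour cells and 0.628 CPM in other cells, and Fads2, a desaturase, was 3.73-fold higher. Of 10 genes of sterol efflux and esterification, 7 were at least 2-fold lower in tumour cells. In macrophages 5 of the 10 were higher, against 6.58% of all genes. In fibroblast and T/NK cells 6 each were lower, against 24.2% and 22.6% of all genes. In neutrophils 4 were lower, against 58.4%. Abcg1 was highest in T/NK cells at 82.1 CPM, with 65.8 CPM in macrophages and 3.91 CPM in tumour cells. Abca1, the cholesterol exporter, stood at 823.5 CPM in macrophages, 510 in neutrophils, 110 in fibroblasts, 32.1 in T/NK cells and 30.1 in tumour cells. Of 18 genes of lipid uptake and storage, 11 were lower in tumour cells, with the scavenger receptor Cd36 at 5.71 CPM against 172 CPM in other cells and lipoprotein lipase (Lpl) at 3.31 against 112 CPM. Of 15 fatty acid oxidation genes 0 were higher and 1 lower in tumour cells, and of 6 NADPH supply genes 0 were higher and 2 lower. Of the 18 cell cycle genes, 6 were higher and 0 lower. These shares stand beside the 26.5% and 25.2% of all genes given above for tumour cells.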

How the data were processed

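The authors deposited whole-number UMI counts for each gene in each barcode. Cell Ranger 8.0.1 wrote them per the file headers, and the submitters' processing notes also name STAR, while the genome build is not given in the sources used here. The authors' deposited cell list gave each kept cell's library, and all treated cells were taken from it. Cells entered the first class whose marker UMIs reached its share of their UMIs: neutrophil (S100a8, S100a9, Csf3r, G0s2) 2%, fibroblast (Col1a2, Col3a1, Dcn) 0.5%, tumour (Krt8, Krt18, Krt7, Epcam) 0.1%, T/NK (Cd3e, Cd3g, Trbc2, Ncr1) 0.1% and macrophage (C1qa, C1qb, Csf1r, Apoe, Lyz2) 0.3%. Cells below double a class's threshold numbered 640, 26, 66, 116 and 874 in this order.

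UMIs were summed per class and divided by the class's total. Sums carry exact Poisson intervals, ratios exact conditional ones and shares of cells Clopper-Pearson ones, all at 95%. Only the 2-fold rule was tried on simulated data, as class sums with known changes. The steps were run in Python 3.11.15 with pandas 2.3.3, scipy 1.17.1 and numpy 2.4.6. No doublet caller was run; cells that met more than 1 rule were left out as an alternative. No correction for free RNA was made.

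The members and lists were chosen with earlier results of these data known. All members could be named, and of each other list up to 4 genes with the largest ratio between tumour and other cells and at least 50 UMIs; the free RNA genes were named besides, and some items are not reported here. The alternatives were all barcodes, 3 marker UMIs, no mixed cells, the mean over cells, no leading genes, equal weight of classes, a 1.5-fold limit, no minimum of UMIs, thinning to 500 UMIs and a cycling threshold of 0.6%. A minimum of 10 expected UMIs, leaving out Scd1 and Scd2, and the splits by depth were added after seeing the data. The planned comparison with the control library was not run.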

Additional observations from a re-analysis of the deposited data

How the results depend on the processing

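Requiring 3 marker UMIs left all branch sums, ratios and counts of members where they were, by their counting intervals or within 1.5 times. Adding the left-out barcodes moved the sterol sum to 144.8 CPM in neutrophils, 422 in fibroblasts, 526 in tumour cells and 291 in macrophages, and the fatty acid sum to 494 in tumour cells and 233 in macrophages. The tumour ratio of sterol to fatty acid UMIs was then 1.06. Members at least 2-fold higher and lower then numbered 5 and 2 in fibroblasts and 1 and 9 in macrophages. Lower ones numbered 0 in tumour cells and 7 in T/NK cells. Of all genes, 17.0% were higher and 24.1% lower in fibroblasts, and 8.60% and 29.0% in macrophages. In tumour cells 27.3% and in T/NK cells 23.0% of all genes were lower. The 9 in macrophages are 32.1% of members and the 7 in T/NK cells 25%, near the shares of all genes. Lss in fibroblasts turned to a log2 ratio of -0.014.

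Without mixed cells the neutrophil sums were 119 CPM for sterol and 55.4 CPM for fatty acid enzymes. As a mean over cells, the sterol sum was 122 CPM in neutrophils, 432 in fibroblasts, 445 in tumour cells and 255 in macrophages, and the fatty acid sum 54.2 CPM in neutrophils and 203 in macrophages. The ratio was then 0.887 in fibroblasts and 0.997 in tumour cells, with 5 members higher in T/NK cells and 6 in macrophages, against 22.4% and 19.0% of all genes.

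Sums fall by construction without the leading genes Ebp and Scd2. The sterol sum was then 116 CPM in neutrophils, 401 in fibroblasts, 374 in tumour cells, 211 in T/NK cells and 234 in macrophages, and the fatty acid sum 49.0, 297, 257 and 146 CPM in neutrophils, fibroblasts, tumour cells and macrophages. The ratio was 2.37, 1.35, 1.46 and 1.60 in these 4 classes. Without Scd1 and Scd2 the fatty acid sum was 47.0, 242, 249 and 144 CPM and the ratio 2.83, 1.89, 1.63 and 1.94 in the same classes. In T/NK cells the ratio was 0.989 without the first pair and 1.18 without the second, lowest of the 5 classes in both. Neutrophils kept the highest ratio under these alternatives.

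With the other classes at equal weight, members at least 2-fold higher numbered 0 in neutrophils, 7 in fibroblasts, 5 in tumour cells, 1 in T/NK cells and 2 in macrophages, and lower ones 0 in tumour cells, 7 in T/NK cells and 7 in macrophages. The 5 in tumour cells are 17.9% of members, against 21.9% of all genes under the same setting. Of all genes, 9.78% were higher in neutrophils, 16.7% in fibroblasts, 19.4% in T/NK cells and 8.84% in macrophages. Lower were 26.5% of all genes in tumour cells, 26.8% in T/NK cells and 31.0% in macrophages. Elovl6 in fibroblasts turned to a log2 ratio of -0.21. At 1.5-fold, 18 were higher and 2 lower in fibroblasts, 5 and 7 in T/NK cells and 4 and 6 in macrophages, while 27.7% and 32.7%, 33.5% and 30.4%, and 14.4% and 33.8% of all genes were. With at least 10 expected UMIs, 2 were lower in T/NK cells, against 24.8% of all genes.

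Thinned to 500 UMIs, a sterol UMI was found in 5.69% of neutrophil, 16.3% of fibroblast, 19.6% of tumour, 9.66% of T/NK and 12.4% of macrophage cells, and a fatty acid UMI in 2.81%, 20.6%, 23.0%, 11.8% and 9.87%. Tumour cells then lay above fibroblasts, within the intervals of both. At a cycling threshold of 0.6%, the sterol ratio of cycling to other cells was 0 in fibroblasts (1 cell) and 0.608 in macrophages, and the fatty acid ratio 1.62 in fibroblasts, 0.330 in T/NK cells and 0.560 in macrophages. No paired analysis was possible because each group is 1 library and the control counts were not analysed here.

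With 1 library, no spread between animals can be given, and intervals cover counting error only. T/NK values rest on 840732 UMIs, where 3 UMIs are 3.57 CPM, so low members cannot be ordered there.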
